A study of Mus musculus with 16 samples.

Results

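The genes described here are the TIM receptors of the mouse and the partners known to bind them: Havcr2 (which encodes TIM-3), Havcr1 (TIM-1), Timd2 (TIM-2), Timd4 (TIM-4), Lgals9, Ceacam1, Hmgb1 and Bag6. Members were all non-control probes whose gene name in the array files was one of these symbols or an older one (Bag6 is listed as Bat3). The rule found 8 of the 27670 gene names on the array and 19 of its 41174 probes. Of these 19, 16 probes of 6 genes were among the 25391 kept for testing. To be kept, a probe had to pass the scanner's flag for a signal well above background, in Cy5 or in Cy3, on 3 or more arrays of some group of 4. Timd2 and Timd4 had no kept probe.

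RNA came from mouse mast cells grown out of bone marrow for over 4 weeks with IL-3 (5 ng/ml), SCF (40 ng/ml) and 10% serum, to a stated purity above 90%. Each of 16 two-colour arrays set cells given agonist anti-TIM-3, a polyclonal goat antibody, against cells given goat IgG, both at 15 ug/ml. The 4 groups, with 4 arrays each, were activated and resting cells taken at 16 h, and activated and resting cells taken at 2 h. Activated cells, in both antibody arms, had been loaded with anti-DNP IgE (5 ug/ml) for 1 h and then given the antigen DNP-HSA (100 ng/ml), which cross-links the IgE receptor. Resting cells were given neither IgE nor antigen. An effect called one of antigen below is therefore that of IgE loading and antigen together, which cannot be told apart here. No genotype or strain comparison was involved, and no untreated or 0 h sample was used here. Anti-TIM-3 RNA always carried Cy5 and IgG RNA always Cy3, so agonist and dye cannot be told apart in the ratio of any 1 group. A constant dye bias drops out of a difference between the ratios of 2 groups, and levels are compared only within a channel. A bias that varies with intensity need not drop out where the groups differ in level, as those of Havcr2 did at 2 h.

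TIM proteins are type I membrane proteins with an immunoglobulin-like domain and a mucin-like stalk, and several of them bind phosphatidylserine on dying cells. TIM-3 is best known as an inhibitory receptor of exhausted T cells. It is also present on mast cells, dendritic cells and macrophages, and its cytoplasmic tail carries tyrosines that Src family and Tec family kinases phosphorylate. Galectin-9, CEACAM1 and HMGB1 are described as its ligands, and BAG6 as a protein that binds its unphosphorylated tail in T cells.

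Ratios are log2 of anti-TIM-3 (Cy5) over IgG (Cy3) after loess normalization, and levels are log2 normalized intensities of 1 channel. All adjusted p-values are from limma, with Benjamini-Hochberg adjustment over all kept probes, and a value passed the test at an adjusted p under 0.05. Probes of 1 gene read the same RNA and are no replicates. The level of a probe also depends on its own sequence, so levels of different probes or genes are not set against each other. Spots flagged as well above background made up 54.8% to 67.7% of an array in Cy5 and 53.7% to 62.1% in Cy3, and 0 were saturated. The number of arrays limits the precision. On 3 arrays (resting 16 h replicate 3, activated 2 h replicate 1, resting 2 h replicate 3) the ratios of all kept probes deviated from the group means together, with correlations of 0.48 to 0.62 across probes.

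All 12 mast cell markers were well above background in Cy3 on all 16 arrays. Of 15 macrophage and dendritic cell markers 12 were kept, with summed intensities of 7173 to 18355 in Cy5 and 7181 to 20407 in Cy3. Those of the mast cell list were 470127 to 793948 in Cy5 and 335520 to 498063 in Cy3. Such sums depend on the probes of each list and do not give shares of cells. Macrophages and dendritic cells also transcribe TIM genes. Of their 12 kept markers, 7 were lower and 1 higher with anti-TIM-3 in activated cells at 16 h (median -0.21), where 12% of all kept probes were lower. Of the 12 mast cell markers, 9 were higher and 2 lower in the same group (median 0.25), where 27.7% of all kept probes passed in either direction, and 7 were higher and 1 lower in resting cells at 16 h (median 0.30, 18.8%). At 2 h, 4 mast cell markers were higher in activated cells (median 0.12, 32.9%) and 5 in resting cells (median 0.22, 12.7%). Basophil markers had summed intensities of 21659 to 32370 in Cy5 and 20377.5 to 30369 in Cy3. With IgG at 16 h these sums were 26977 to 29738 in activated and 20377.5 to 21535 in resting cells. In that comparison 1 of the 3 kept basophil markers passed as higher and 0 as lower (median 0.21). Of all kept probes, 11.1% passed there in either direction. Kept markers numbered 3 of 4 for basophils, 5 of 10 for neutrophils, 4 of 8 for T and NK cells and 3 of 5 for B cells. The share of these cells in the values below was not tested, and in bulk RNA fewer cells of a type and less RNA per cell cannot be told apart.

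The 250 bases before the annotated start are shown for the receptor Havcr2 and for Ceacam1 and Lgals9, its membrane and secreted lectin ligands, whose RNA passed the test for antigen at 2 h with IgG. Some probes of Hmgb1 and Bag6 passed it too, and their promoters are not shown. Sequences are from RefSeq on the GRCm38.p6 build, which holds promoters for all 8 genes, and run 5′ to 3′ on the strand of the gene. Capitals mark matches, on either strand, to TGANTCA (the AP-1 site) or GGAAA (the NFAT core), the only ones of 6 motifs searched that these 3 windows hold. The others were GATAA (GATA), TTANNTAA (NFIL3), AGGTGTGA (T-box) and the NF-kappaB motif.
Havcr2, chr11:46454681-46454930, plus strand: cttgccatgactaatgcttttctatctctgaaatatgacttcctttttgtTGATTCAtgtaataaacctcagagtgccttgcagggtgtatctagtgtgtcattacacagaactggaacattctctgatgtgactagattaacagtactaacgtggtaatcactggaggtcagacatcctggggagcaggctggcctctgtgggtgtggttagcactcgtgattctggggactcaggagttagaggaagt
Ceacam1, chr7:25477626-25477875, minus strand: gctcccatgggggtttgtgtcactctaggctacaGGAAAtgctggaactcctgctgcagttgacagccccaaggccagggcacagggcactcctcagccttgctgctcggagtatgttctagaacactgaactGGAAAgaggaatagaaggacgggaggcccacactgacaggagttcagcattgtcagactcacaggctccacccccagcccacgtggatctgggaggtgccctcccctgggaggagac
Lgals9, chr11:78984925-78985174, minus strand: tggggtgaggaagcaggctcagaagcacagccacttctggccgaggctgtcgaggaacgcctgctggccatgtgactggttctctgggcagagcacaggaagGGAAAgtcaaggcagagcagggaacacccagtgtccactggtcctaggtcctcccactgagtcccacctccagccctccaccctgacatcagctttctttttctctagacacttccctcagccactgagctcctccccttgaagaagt
The Havcr2 window has 44.8% G and C and 1 AP-1 match, a motif found in 6.75% of the 32841 promoters of this length in the table. The Ceacam1 window holds 2 GGAAA matches and the Lgals9 window 1, and 55.6% of all promoters hold at least 1. The other motifs occur in 22.6% (GATAA), 5.44% (TTANNTAA), 1.12% (AGGTGTGA) and 1.41% (NF-kappaB) of promoters. A match describes letters only. Havcr2 opens a run of TIM genes on chromosome 11: in the annotation's order it is followed by Gm12169, BC053393, Dppa1, Timd2, Havcr1 and Timd4.

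Havcr2 RNA was highest in activated cells at 2 h, in both antibody arms, and lower at 16 h than at 2 h in every matched comparison. Antigen raised it at 2 h in both arms. At 16 h the rise passed the test in anti-TIM-3-treated cells and missed it in IgG-treated cells. The array holds 2 Havcr2 probes for the same transcript (NM_134250), A_51_P109508 and A_52_P560535. Both gave this order, but they differed in the size of the changes. Their levels correlated at r = 0.985 over the 32 channel values of the 16 arrays, which share libraries.

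In anti-TIM-3-treated cells, A_51_P109508 had levels of 13.66, 13.62, 13.49 and 13.60 in activated cells at 16 h, against 13.02, 13.15, 12.99 and 13.29 in resting cells at 16 h. At 2 h its levels with anti-TIM-3 were 15.63, 15.73, 15.74 and 15.73 in activated cells, against 14.07, 14.15, 14.05 and 14.05 in resting cells. The groups did not overlap at either time. The antigen effect under anti-TIM-3 was 1.63 at 2 h, a 3.09-fold rise (SE 0.06, adjusted p = 4.54e-12), and 0.48 at 16 h, a 1.39-fold rise (SE 0.06, adjusted p = 6.88e-05).

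In IgG-treated cells the same probe had 13.59, 13.46, 13.54 and 13.44 in activated cells at 16 h, against 13.30, 13.28, 13.39 and 13.43 in resting cells at 16 h. At 2 h it had 15.14, 15.07, 15.07 and 15.18 in activated cells, against 13.92, 13.96, 14.21 and 14.06 in resting cells. The groups stood about 1 log2 unit apart at 2 h and nearly touched at 16 h. The effect of antigen without the agonist was 2.11-fold at 2 h (adjusted p = 6.99e-10). At 16 h it was 0.16 with a 95% interval of 0.03 to 0.29 (adjusted p = 0.118), and within the slides that hold both groups 0.22 and 0.04.

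The other probe, A_52_P560535, is dimmer and showed the larger antigen effect at 2 h. With anti-TIM-3 it had 10.54, 10.52, 10.49 and 10.54 in activated cells at 2 h, against 8.36, 8.47, 8.44 and 8.37 in resting cells, a 4.32-fold rise (difference 2.11, SE 0.05, adjusted p = 2.28e-14). With IgG it had 10.23, 10.25, 10.13 and 10.10 in activated cells at 2 h, against 8.24, 8.41, 8.40 and 8.34 in resting cells, a 3.55-fold rise (difference 1.83, SE 0.08, adjusted p = 1.63e-11). No group overlapped its resting counterpart at 2 h. At 16 h the antigen effect of this probe was 0.43 with anti-TIM-3 (1.35-fold, adjusted p = 2.5e-05) and 0.09 with IgG (95% interval -0.07 to 0.25, adjusted p = 0.513).

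**Figure D1:**
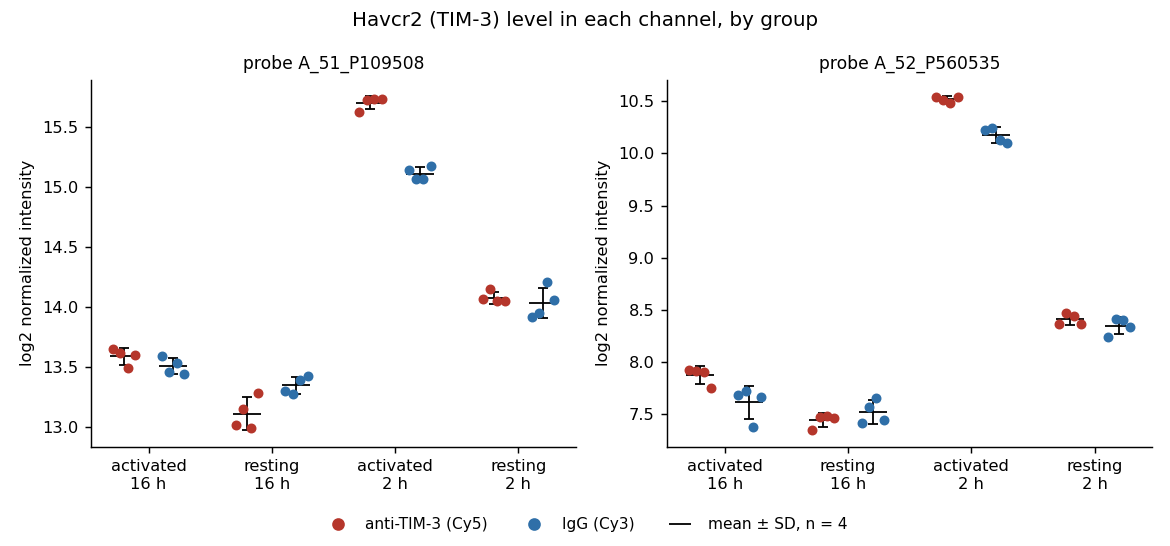
Log2 normalized intensity (y axis) of the Havcr2 probes A_51_P109508 and A_52_P560535 in each group (x axis), with anti-TIM-3 (Cy5, red) left of IgG (Cy3, blue). Points are arrays, and lines with bars are mean ± SD (n = 4). Activated cells at 2 h stand above all other groups on both probes and in both channels.

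Havcr2 fell with time in both states. In activated cells it was 4.33-fold lower at 16 h than at 2 h with anti-TIM-3 (difference -2.11, adjusted p = 6.31e-14) and 3.04-fold lower with IgG (-1.60, adjusted p = 1.45e-12) on A_51_P109508. In resting cells, which received no antigen, the differences of this probe were -0.97 with anti-TIM-3 (adjusted p = 3e-09) and -0.69 with IgG (adjusted p = 1.22e-07). On A_52_P560535 the falls were 6.25-fold and 5.91-fold in activated cells and 1.95-fold and 1.77-fold in resting cells, with anti-TIM-3 named before IgG in each pair. From high to low, both probes ran activated 2 h, resting 2 h, activated 16 h, resting 16 h. All neighbours in this order were separated beyond their ranges in Cy5. In Cy3 the 16 h groups of A_52_P560535 overlapped, and those of A_51_P109508 were 0.01 apart at their closest in the rounded values above. The comparisons by antigen and by time use the same arrays and are not independent.

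The effect of the agonist on the RNA of its own target was read as the ratio on each array. For A_51_P109508 the ratios were 0.49, 0.65, 0.67 and 0.56 in activated cells at 2 h, against 0.15, 0.20, -0.16 and -0.01 in resting cells at 2 h. At 16 h they were 0.06, 0.15, -0.04 and 0.16 in activated cells, against -0.29, -0.12, -0.40 and -0.14 in resting cells. Activated cells had the higher ratios at both times, without overlap. Their difference was 0.55 at 2 h (SE 0.08, adjusted p = 0.000354) and 0.32 at 16 h (SE 0.08, adjusted p = 0.0232). The 16 h difference missed the threshold in 5 of 8 fits that left out 1 array (0.27 to 0.33, adjusted p = 0.0579 to 0.0875: activated 16 h replicates 1, 2 and 4, resting 16 h replicates 1 and 3). It also missed it with Agilent's own processed signals (0.27, adjusted p = 0.0958). With median centring of each array instead of loess, the ratios of all kept probes shifted upward by 0.185 to 0.341 (median, by group). The A_51_P109508 differences were then 0.77 at 2 h and 0.50 at 16 h. Its mean ratio in activated cells at 2 h was 1.39, or 1.18 relative to that shift, where loess gave 0.59. Whether a dye bias that varies with intensity enters the differences between groups was not tested. Within slides, which hold few arrays each, the difference at 2 h was 0.42 and 0.77 and that at 16 h was 0.39 and 0.43.

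For A_52_P560535 the ratios were 0.31, 0.27, 0.36 and 0.44 in activated cells at 2 h, against 0.12, 0.06, 0.04 and 0.03 in resting cells at 2 h. At 16 h they were 0.24, 0.20, 0.53 and 0.09 in activated cells, against -0.06, -0.10, -0.17 and 0.02 in resting cells. All 8 ratios of activated cells were above 0, and again no group overlapped its resting counterpart. The mean of activated cells was 1.27-fold higher with anti-TIM-3 than with IgG at 2 h (adjusted p = 0.000104), and 1.20-fold higher at 16 h (adjusted p = 0.00131). These log2 means, 0.34 and 0.26, were 0.69 and 0.52 under median centring, or 0.49 and 0.18 relative to the shift of all kept probes.

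The difference between activated and resting ratios on this Havcr2 probe was 0.28 at 2 h (SE 0.08, adjusted p = 0.0341) and 0.34 at 16 h (SE 0.08, adjusted p = 0.01). The first of these passed only narrowly. It missed the threshold without any 1 of the 8 arrays compared (0.25 to 0.31, adjusted p = 0.0516 to 0.121), with Agilent's processed signals (0.25, adjusted p = 0.26), with an offset of 16 in the background correction (0.29, adjusted p = 0.0864) and with the slide as a block (0.23, adjusted p = 0.101). Median centring gave 0.43. Without the 3 arrays that deviate together it was 0.29 (adjusted p = 0.106), and the 16 h difference was then 0.31 (adjusted p = 0.0511).

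The Havcr2 probes disagreed on time. In activated cells the ratio of A_51_P109508 was lower at 16 h than at 2 h by 0.51 (0.08 ± 0.09 at 16 h and 0.59 ± 0.08 at 2 h, SD, n = 4 each, adjusted p = 0.000278). That of A_52_P560535 was 0.26 ± 0.19 at 16 h and 0.34 ± 0.07 at 2 h, a difference of -0.08 (95% interval -0.24 to 0.08, adjusted p = 0.539). In resting cells at 16 h, A_51_P109508 had a mean ratio of -0.24 (adjusted p = 0.00983) and A_52_P560535 one of -0.08 (adjusted p = 0.322). The value of -0.24 missed the threshold without resting 16 h replicate 1 (-0.22, adjusted p = 0.0627) or replicate 3 (-0.18, adjusted p = 0.0888). It turned to 0.33 under median centring, and relative to the shift of all kept probes it was then 0.07.

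**Figure D2:**
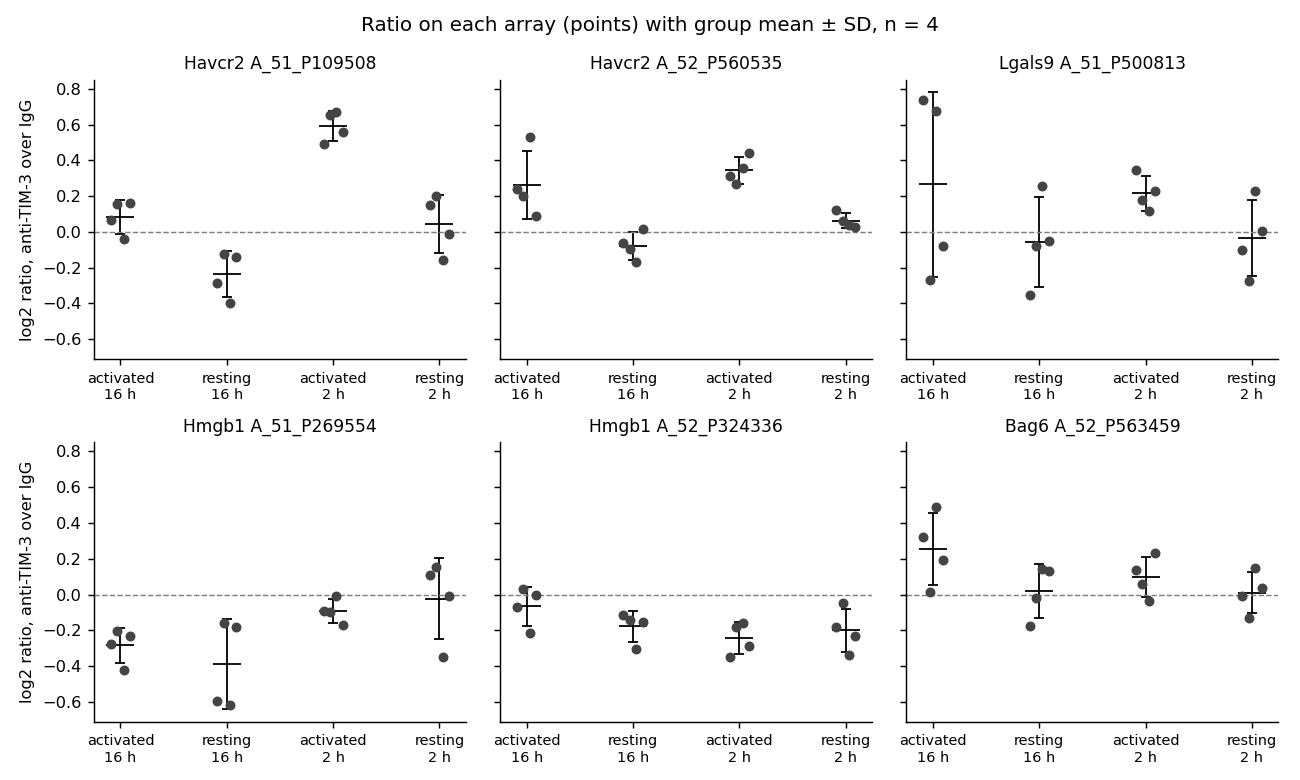
Log2 ratio of anti-TIM-3 over IgG (y axis) on every array of the 4 groups (x axis) for 6 member probes: both Havcr2 probes, Lgals9, Hmgb1 A_51_P269554, Hmgb1 A_52_P324336 and Bag6 A_52_P563459. Lines with bars are mean ± SD (n = 4). Havcr2 ratios of activated cells lie above those of resting cells at both times, while the Lgals9 arrays of activated cells at 16 h spread from -0.27 to 0.74.

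The genes whose levels followed Havcr2 most closely were ranked by Pearson correlation with A_51_P109508 over the same 32 channel values, among the brightest probes of 17079 genes. Among the 5 highest were Cdk17, a cyclin-dependent kinase (r = 0.990), Mmd, a membrane protein first found in differentiating monocytes (0.989), 1700080G18Rik (0.989) and 5033430I15Rik (0.987). With the other Havcr2 probe, r was 0.973 for Cdk17, 0.977 for Mmd, 0.992 for 1700080G18Rik and 0.990 for 5033430I15Rik. Mmd had mean levels of 12.29 in activated and 10.59 in resting cells at 2 h with anti-TIM-3, and 11.49 in activated and 10.28 in resting cells at 2 h with IgG. These 4 genes were all highest in activated cells at 2 h, which describes their choice by correlation with Havcr2. These correlations describe points that share 16 arrays and the same 8 groups.

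**Figure D3:**
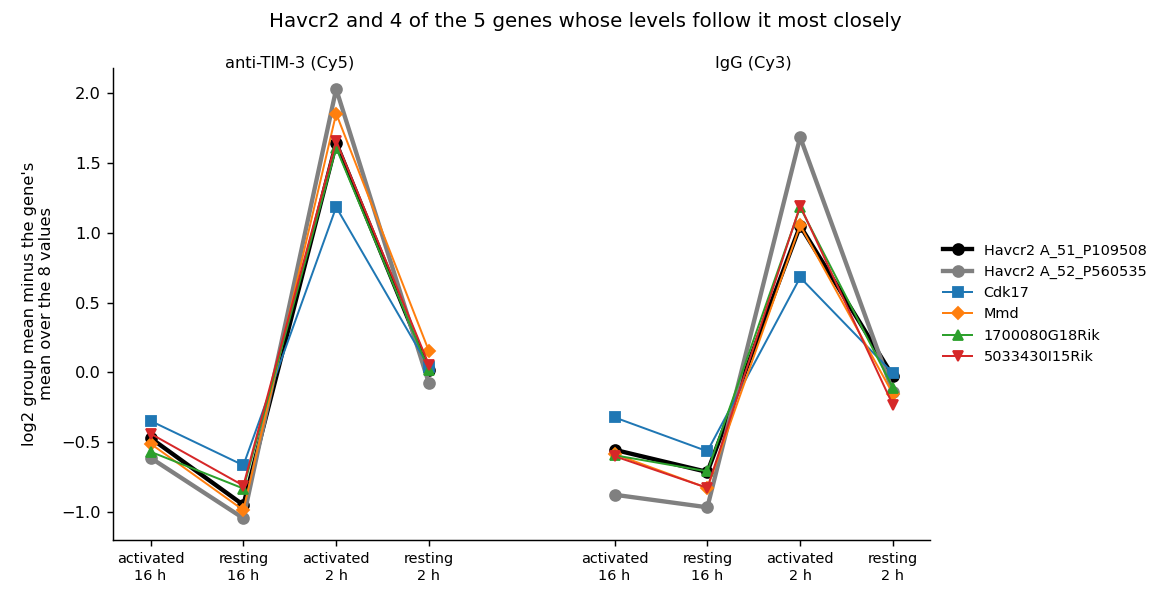
Mean log2 level of both Havcr2 probes and of 4 of the 5 genes most correlated with A_51_P109508, each centred on its mean over the 8 values (y axis, log2), across the 4 groups (x axis), with anti-TIM-3 (Cy5) on the left and IgG (Cy3) on the right. All 6 lines peak in activated cells at 2 h. The 4 genes were chosen for their likeness to Havcr2, so the shared peak describes the choice.

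Havcr1 encodes TIM-1, a costimulatory TIM receptor of T cells that is also a marker of kidney injury. Its probe A_51_P371740 was well above background on 16 arrays in Cy5 and 15 in Cy3, at low levels. In activated cells at 16 h its levels were 6.93, 6.74, 7.01 and 6.98 with anti-TIM-3. With IgG they were 6.82, 6.84, 6.86 and 6.70 on the same arrays. The ratios of these arrays ran from -0.10 to 0.27. Activated cells at 2 h spread widely through replicate 3, which had 7.30 with anti-TIM-3 and 7.19 with IgG. The other 3 replicates lay between 6.56 and 6.69 with anti-TIM-3, and between 6.45 and 6.71 with IgG. None of the 16 limma comparisons of this probe passed after adjustment, and 2 had an unadjusted p under 0.05.

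The other Havcr1 probe, A_51_P371745, was kept only through 3 arrays of activated cells at 16 h in Cy5. Beyond these it was well above background on 1 array (resting 2 h, Cy5) and on 0 in Cy3. Its ratios in activated cells at 16 h were 0.17, 0.15, 0.03 and 0.04, and their mean of 0.10 turned to -0.02 under median centring. With anti-TIM-3 at 16 h it was at least 1.14-fold higher in activated than in resting cells. Since the filter kept the probe through this group and channel alone, these values describe the choice, and no test of them is read.

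Timd2 (TIM-2, a mouse receptor that binds ferritin) and Timd4 (TIM-4, a phosphatidylserine receptor of macrophages) were left out of the tests. The Timd2 probe A_52_P17556 was well above background on 1 array in Cy5 and 0 in Cy3, and A_51_P500906 on 2 in Cy5 and 0 in Cy3. The Timd4 probe A_52_P609868 passed on 1 array in each channel, in activated cells at 16 h. RNA of both genes was not detectable above background on most arrays.

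Lgals9 encodes galectin-9, a secreted lectin that binds sugars on TIM-3, and has 1 probe, A_51_P500813 (NM_010708). Antigen lowered it at 2 h in IgG-treated cells. Its Cy3 levels there were 10.13, 9.84, 9.97 and 9.76 in activated cells, against 10.47, 10.38, 10.21 and 10.46 in resting cells. All activated values lay below all resting values, a 1.37-fold fall (difference -0.46, adjusted p = 0.000503). At 16 h the IgG levels were 10.43, 10.30, 10.22 and 10.38 in activated cells, against 10.84, 10.58, 10.48 and 10.55 in resting cells. Again all activated values were lower (difference -0.28, adjusted p = 0.0543). With the replicate number as a block this difference was -0.28 with an adjusted p of 0.01. Between times, Lgals9 was 1.33-fold higher at 16 h than at 2 h in activated IgG-treated cells (adjusted p = 0.000811).

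In activated cells at 16 h the spread of Lgals9 was wider with anti-TIM-3 (SD 0.52) than with IgG (0.09). In resting cells at 16 h it was not (0.12 with anti-TIM-3, 0.15 with IgG). With anti-TIM-3, activated cells at 16 h had 11.16, 10.03, 10.90 and 10.30, against 10.48, 10.50, 10.74 and 10.50 in resting cells at 16 h. Replicates 1 and 3 of the activated group stood above all resting arrays and the other two below them. The antigen difference under anti-TIM-3 was 0.04 at 16 h (adjusted p = 0.917) and -0.20 at 2 h (adjusted p = 0.418).

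The Lgals9 ratios in activated cells at 16 h were 0.74, -0.27, 0.67 and -0.08, a mean of 0.26 with a 95% interval of -0.02 to 0.55 (adjusted p = 0.157). Without replicate 2 the mean was 0.44 (adjusted p = 0.0234). In activated cells at 2 h the ratios were 0.34, 0.18, 0.11 and 0.23, against -0.10, -0.28, 0.23 and 0.01 in resting cells at 2 h. The difference of 0.25 between them did not pass (adjusted p = 0.548). None of the 8 comparisons of Lgals9 ratios passed in limma, and 0 had an unadjusted p under 0.05. The 3 arrays that deviate together carried the highest Lgals9 ratio of their groups: 0.26 in resting cells at 16 h, 0.34 in activated cells at 2 h and 0.23 in resting cells at 2 h.

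Ceacam1, an adhesion receptor of the immunoglobulin superfamily that binds TIM-3, lay close to background. It is measured by 3 probes, A_51_P171728 and A_52_P159232 (NM_011926) and A_51_P183446 (NM_001039186). At 2 h each was well above background on 3 or 4 arrays of every group, and at 16 h on 0 to 3. A_51_P171728 had 7.71, 7.57, 7.52 and 7.47 with anti-TIM-3 in activated cells at 2 h, against 6.76, 6.80, 6.86 and 6.86 in resting cells. With IgG it had 7.42, 7.57, 7.56 and 7.41 in activated cells at 2 h, against 6.73, 6.82, 6.67 and 6.90 in resting cells. The groups did not overlap in either channel. Antigen raised this probe 1.68-fold with anti-TIM-3 (adjusted p = 3.57e-08) and 1.64-fold with IgG (adjusted p = 2.18e-08) at 2 h. The antigen effects of A_52_P159232 were 0.40 with anti-TIM-3 and 0.43 with IgG, and those of A_51_P183446 0.27 and 0.33, all past the threshold (largest adjusted p = 0.00137).

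At 16 h A_51_P171728 was well above background on 0 arrays of resting cells in both channels. Of activated cells, 1 array passed in Cy5 and 0 in Cy3. Its IgG levels were 6.16, 6.15, 6.22 and 6.09 in activated cells at 16 h, against 6.15, 6.11, 6.15 and 6.16 in resting cells. These overlapped, so no antigen effect was detectable there. A_51_P171728 and A_51_P183446 were kept through the 2 h groups alone, so their fall with time describes the choice and is given as a bound with no test. A_51_P171728 was at least 2.37-fold lower at 16 h in activated cells with IgG. In resting cells it was at least 1.53-fold lower with anti-TIM-3 and at least 1.38-fold lower with IgG. A_51_P183446 was at least 1.42-fold lower with IgG in activated cells.

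At 2 h, where Ceacam1 was above background in both channels, A_51_P171728 had mean ratios of 0.08 in activated and 0.04 in resting cells, and neither passed. At 16 h its ratio has no reading, since Cy3 was at background on all arrays. The paralogue Ceacam2, close in sequence, had an antigen effect of 1.22 at 2 h in IgG-treated cells (adjusted p = 9.49e-08) and a ratio of -0.37 in activated cells at 2 h (adjusted p = 0.000559). Probe sequences were not used here, so a share of Ceacam2 RNA in the Ceacam1 values was not tested. Of the 11 genes listed for the family 3 were kept.

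**Figure D4:**
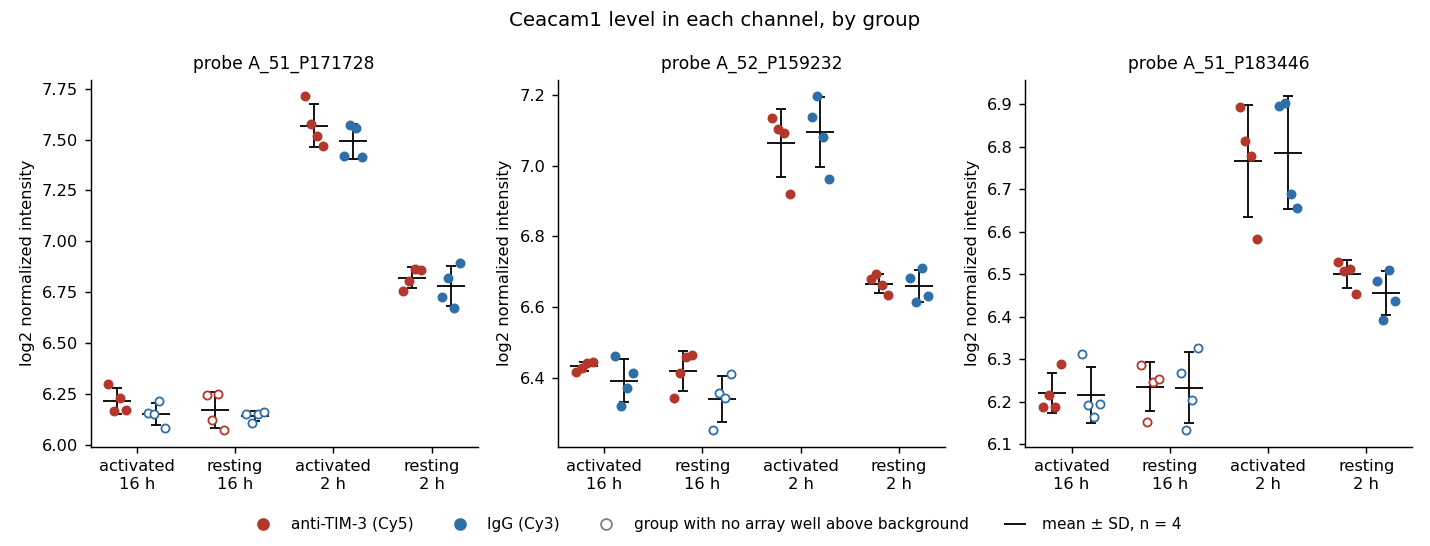
Log2 normalized intensity (y axis) of the 3 Ceacam1 probes in each group (x axis), with anti-TIM-3 (Cy5, red) left of IgG (Cy3, blue). Points are arrays, lines with bars are mean ± SD (n = 4), and hollow points mark groups in which no array was well above background. All 3 probes are highest in activated cells at 2 h, and the 16 h groups lie near the floor.

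Hmgb1 encodes a nuclear DNA-binding protein that acts as an alarm signal outside the cell and binds TIM-3 in dendritic cells. Its 4 probes disagreed, and the mouse genome has near-identical processed copies of the gene, so its values are uncertain. Probe A_52_P324336 (BC064790) fell with antigen at 2 h. In Cy5 it had 12.68, 12.80, 12.91 and 12.78 in activated cells, against 13.25, 13.49, 13.31 and 13.31 in resting cells (difference -0.55, adjusted p = 4.3e-06). In Cy3 it had 13.03, 12.99, 13.07 and 13.07 in activated cells, against 13.44, 13.54, 13.65 and 13.54 in resting cells (-0.50, adjusted p = 1.62e-05). The groups were apart in both channels. None of the other 3 probes changed with antigen at 2 h in the unblocked fit. With the replicate number as a block, A_52_P117821 also passed in Cy3 (-0.21, adjusted p = 0.0442, against 0.0916 without it).

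More Hmgb1 probes moved with time. In IgG-treated activated cells all 4 probes were higher at 16 h than at 2 h, by 0.36 (A_52_P117821, adjusted p = 0.00389), 0.74 (A_52_P324336, 8.08e-08), 0.48 (A_51_P269554, 2.45e-06) and 0.47 (A_52_P323044, 3.29e-06). With anti-TIM-3 the first 3 passed as well, at 0.36, 0.91 and 0.29. Of all kept probes, 32.6% with anti-TIM-3 and 32.2% with IgG passed as higher in the same comparison. In IgG-treated resting cells 3 of 4 probes were higher at 16 h, by 0.48 to 0.63, where 23.2% of all kept probes were. In resting cells with anti-TIM-3, A_52_P324336 was higher at 16 h by 0.50 (adjusted p = 1.35e-05), where 45.2% of all kept probes passed in either direction. With the replicate number as a block, A_52_P117821 (0.17, adjusted p = 0.0392) and A_51_P269554 (0.26, adjusted p = 0.0483) passed there as well.

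The Hmgb1 ratios passed as falls in 6 of 16 values within groups, and the sizes depended on the probe. Of all kept probes, 12% in activated and 8.72% in resting cells at 16 h, and 14.7% in activated and 6.47% in resting cells at 2 h, passed as falls. In resting cells at 16 h, A_51_P269554 had -0.59, -0.16, -0.62 and -0.18 (mean -0.39, adjusted p = 0.00384), and A_52_P323044 had -0.81, -0.26, -0.92 and -0.20 (mean -0.55, adjusted p = 0.0045). Replicates 1 and 3 had the larger falls on both probes, while the brightest probe, A_52_P117821, had a mean of 0.01 there. Under median centring 5 of these 6 falls turned to rises (0.30, 0.33, 0.43, 0.15 and 0.39), and only that of A_52_P323044 kept its sign. All kept probes shifted upward under this setting. Relative to that shift, A_52_P324336 stood at 0.09 in activated and 0.14 in resting cells at 2 h, and at 0.17 in resting cells at 16 h. For A_51_P269554, the 0.15 in resting cells at 16 h lay below the shift of 0.26 there. Its 0.39 in activated cells at 16 h lay above a shift of 0.34. None of the 16 differences between groups in Hmgb1 ratios passed in limma, and 3 had an unadjusted p under 0.05.

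Bag6, a chaperone that binds the tail of TIM-3 in T cells and holds it inactive, has 4 probes, 2 of them dim. None of the 32 comparisons of the dim probes passed, and 1 had an unadjusted p under 0.05 in limma. A_52_P563459 fell with antigen at 2 h. In IgG-treated cells it had 11.68, 11.77, 11.83 and 11.67 in activated cells, against 12.17, 12.09, 11.93 and 12.12 in resting cells (difference -0.34, adjusted p = 0.000529). With anti-TIM-3 the difference was -0.26 (adjusted p = 0.00518). A_51_P168865 had 10.53, 10.70, 10.68 and 10.60 with IgG in activated cells, against 11.06, 10.80, 10.97 and 10.99 in resting cells (-0.32, adjusted p = 0.000431). In IgG-treated cells the groups were apart on both probes. With anti-TIM-3 those of A_51_P168865 overlapped (10.65, 10.53, 10.50 and 10.53 in activated cells, against 10.88, 10.40, 11.10 and 10.94 in resting cells), and the difference of -0.28 did not pass (adjusted p = 0.0815). Both were also higher at 16 h than at 2 h in activated cells with IgG, by 0.43 (adjusted p = 3.03e-05) and 0.23 (adjusted p = 0.00479).

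The Bag6 ratio passed in 1 of 16 values, in activated cells at 16 h, where 27.7% of all kept probes passed. A_52_P563459 had ratios of 0.32, 0.01, 0.49 and 0.19 in activated cells at 16 h (mean 0.25, adjusted p = 0.0101), where resting cells at 16 h had -0.18, -0.02, 0.14 and 0.13. Their difference did not pass, nor did any other of the 16 differences of Bag6 ratios in limma, of which 1 had an unadjusted p under 0.05.

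The counts of member probes that passed for antigen and time are given beside the shares of all kept probes. With IgG at 2 h, antigen changed 9 of 16 member probes, where 42.9% of all kept probes passed. These were 5 up (16.9% of all kept probes) and 4 down (26%). With anti-TIM-3 it was 7 of 16 (45.9%). At 16 h, 3 of 16 passed with anti-TIM-3 (18.8%) and 1 of 16 with IgG (11.1%). The time comparison called 12 of 16 in activated cells in both channels, where 61.8% passed with anti-TIM-3 and 61.2% with IgG. In resting cells it called 7 of 16 with anti-TIM-3 (45.2%) and 10 of 16 with IgG (47.6%). These counts include the 2 Ceacam1 probes and the Havcr1 probe that the filter kept through 1 time or group alone, and nothing is read from them.

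The ratios of members passed in 4 of 16 probes in activated cells at 16 h (27.7% of all kept probes) and in 4 in resting cells at 16 h (18.8%). At 2 h they passed in 3 in activated cells (32.9%) and in 1 in resting cells (12.7%). The count for activated cells at 16 h includes the Havcr1 probe that the filter kept through that group. Its pass describes the choice and is not read. The difference of ratios between activated and resting cells passed for 2 of 16 probes at 2 h (5.64%) and for 2 at 16 h (6.86%), both times the 2 Havcr2 probes. The difference between 16 h and 2 h passed for 1 in activated cells, a Havcr2 probe (15.6%). In resting cells it passed for 0 of 16 in limma (0.15%), with 3 at an unadjusted p under 0.05. This result for resting cells depended on 1 array: without resting 2 h replicate 3, Havcr2 A_51_P109508 passed, as did many more of all kept probes. With all 16 arrays, Havcr2 was thus the only member for which a difference between groups in the ratio passed. That this sets it apart from the other members was not tested.

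**Figure D5:**
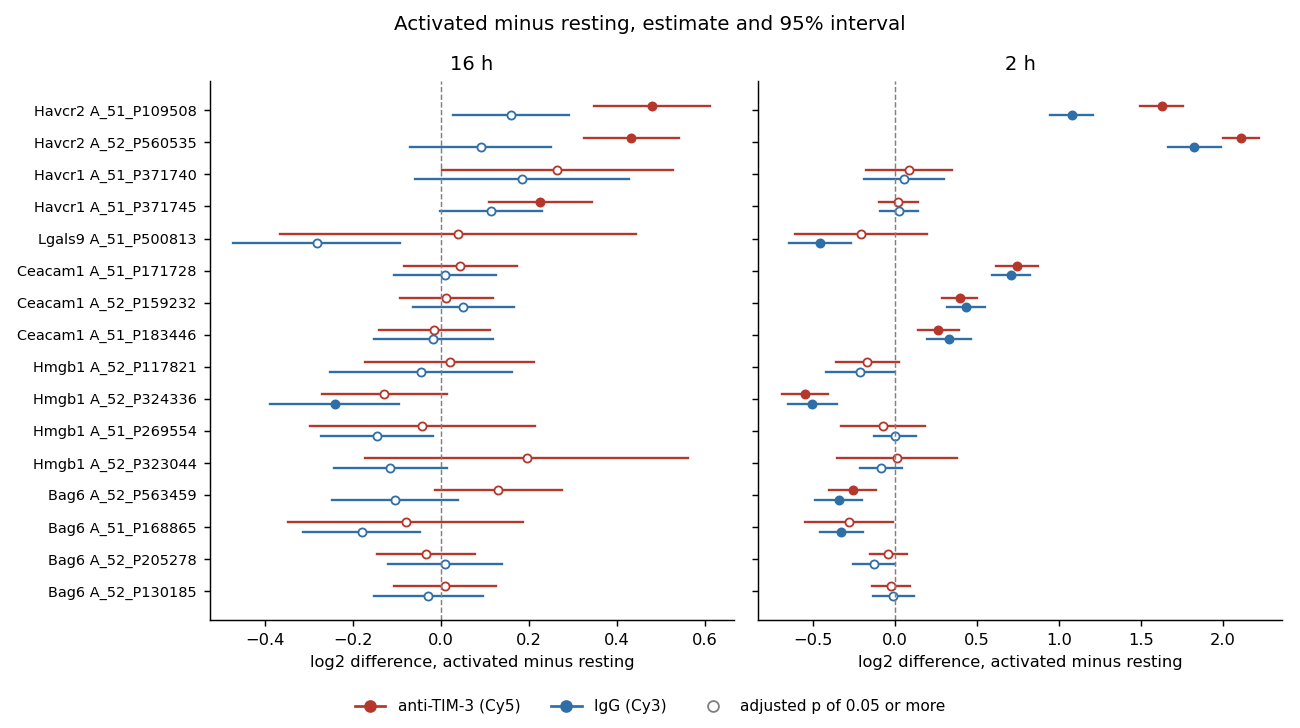
Activated minus resting log2 level (x axis) for the 16 kept member probes (y axis), with anti-TIM-3 (Cy5, red) above IgG (Cy3, blue), at 16 h in the left panel and at 2 h in the right. Bars are 95% intervals of the fit, and hollow points did not pass at an adjusted p of 0.05. Havcr1 A_51_P371745 was kept only through activated cells at 16 h in Cy5, so its filled point at 16 h describes the choice. Havcr2 has the largest rises at 2 h, and Lgals9, 2 Bag6 probes and 1 Hmgb1 probe fell at 2 h with IgG.

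Other genes of the TIM pathway were counted by lists, 1 probe per gene, beside all kept probes. Regulators of TIM-3 transcription were kept for all 26 genes, 22 of them well above background in Cy3 on all 16 arrays. With IgG, antigen at 2 h raised 10 and lowered 4 of the 26 (median 0.15, against -0.04 over all kept probes). Of all kept probes 16.9% rose and 26% fell in that comparison. Nfil3, a leucine zipper repressor that induces TIM-3 in T cells, rose by 2.60 (adjusted p = 4.55e-13). Batf and Jun, which form AP-1 dimers, rose by 0.84 (adjusted p = 1.94e-07) and 0.79 (6.77e-09). The difference of ratios at 2 h passed for 6 up and 2 down (5.64% of all kept probes passed), with Irf4 at 0.71 (adjusted p = 0.000358), Tbx21 (T-bet) at 0.47 (0.000467) and Gata2 at -0.43 (0.000387). At 16 h it passed for 5 up and 4 down (6.86% of all kept probes), with Batf at 0.73 (adjusted p = 1.59e-05). Irf4 was well above background in Cy3 on at most 7 of the 16 arrays and Tbx21 on at most 11. The ratios of Irf4 and Tbx21 are therefore partly read against background.

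Kinases and proximal signalling proteins of the TIM-3 tail were measured for 24 of 25 genes. With IgG, antigen at 2 h raised 7 and lowered 10 (median -0.10), where 16.9% of all kept probes rose and 26% fell. Fyn, a kinase that binds the TIM-3 tail in T cells, rose by 1.31 (adjusted p = 4.46e-10), and Csk, an inhibitor of Src family kinases, fell by 0.99 (2.76e-08). The difference of ratios at 2 h passed for 2 up, among them Fyn at 0.28 (adjusted p = 0.0219), and for 2 down, Lyn at -0.29 (0.00237) and Grb2 at -0.28 (0.00984), where 5.64% of all kept probes passed.

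Sheddases that cut membrane receptors, and their inhibitors, were measured for 10 of 11 genes. Antigen at 2 h raised 6 and lowered 1 with IgG (median 0.34; 16.9% and 26% of all kept probes). Ratio differences passed for 3 up and 0 down at 2 h: Timp3 at 0.75 (adjusted p = 2.07e-06), Adam10, a protease known to release TIM-3 from cells, at 0.63 (0.00683), and Timp1 at 0.44 (0.000445). The share of all kept probes that passed as higher was 4.03%. At 16 h Timp1 at 0.82 (adjusted p = 4.9e-07) and Adam10 at 0.67 (0.0042) passed, where 3.81% of all kept probes did.

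Of 10 galectins and relatives 8 were kept. Lgals1 (galectin-1) had a difference of ratios of -0.57 at 16 h (adjusted p = 0.000104), and the galectin-related Lgalsl one of 0.54 at 2 h (2.98e-05). With IgG, 3 rose and 0 fell with antigen at 2 h (median -0.03), where 16.9% of all kept probes rose and 26% fell. Of 9 HMGB proteins and HMGB1 receptors, all kept, antigen at 2 h raised 1 and lowered 3 with IgG (median 0.02), beside the same 16.9% and 26%. Hmgb2, a close relative of Hmgb1, fell by 0.66 (adjusted p = 6.88e-06), and Cd24a, a surface protein that binds HMGB1, rose by 0.48 (0.000938). For Cd24a the ratio difference at 2 h was 0.34 (0.000114).

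Phosphatidylserine receptors and bridging proteins were kept for 19 of 21 genes. At 16 h ratio differences passed for 3 up and 3 down (median -0.04), where 6.86% of all kept probes passed. Itgb3 had 0.71 (adjusted p = 1.72e-06), the scavenger receptor Cd36 0.47 (0.000629) and the receptor kinase Axl 0.41 (0.00035), while Gas6, the ligand of Axl, had -0.55 (0.00143). Axl was well above background in Cy3 on at most 12 of the 16 arrays. With IgG, 6 of the 19 rose and 2 fell with antigen at 2 h (16.9% and 26% of all kept probes). Among 6 TIM relatives and further ligands 2 were kept. Sema4a, a semaphorin described as a TIM-2 ligand, had a difference of ratios of 0.44 at 16 h (adjusted p = 0.000309). Fth1, the ferritin heavy chain that TIM-2 binds, had ratios of 0.38 to 0.63 in the 4 groups, all past the threshold and open to dye bias.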

How the data were processed

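RNA of anti-TIM-3-treated (Cy5) and IgG-treated (Cy3) mast cells was measured on 16 two-colour Agilent whole mouse genome arrays, 4 per group. The arrays lay on 4 slides, over which the groups were unevenly spread. Activated cells at 2 h lay on slides 1 and 3 alone, and activated cells at 16 h on slides 2, 3 and 4. Slide and time are thus partly confounded in activated cells, which share slide 3 alone between the times. The deposited scanner files hold spot and local background intensities on a linear scale, read by Agilent Feature Extraction 9.1.3.1 per the file headers (version 9 per the submitters' processing notes). Per the file headers, the processed intensities are background-subtracted and dye-normalized, and the log ratio is log10 of processed Cy5 over Cy3. The log10 ratios in the value table that the authors deposited equal those of the scanner files (difference 0 over 45018 spots, column median 0), which settles their scale and direction. Deposited flags of 0 or 1 mark spots well above background, saturated or outlying.

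Intensities were background-corrected with normexp (offset 50), normalized by loess within arrays and by Aquantile between them, with weight 0 for the 1639 control spots and for outlier spots, in limma 3.58.1 (R 4.3.3, with version 1.17.8 of data.table). The offset understates changes of dim probes. Repeated spots of a probe were averaged, and probes of a gene were kept apart. Ratios, Cy3 levels and Cy5 levels were fitted separately, each over all 16 arrays (lmFit, eBayes, two-sided, 25391 probes). These fits gave the 16 comparisons: 4 ratios against 0, 4 differences of ratios and 4 differences in each channel. A bound ("at least") sets the bright group's mean against a floor for the dim group: on each array the smallest signal flagged above background, or the probe's own signal where that is larger. The fit of the ratios was tested on simulated data. No 2 files held identical values, and labels do not say that replicates came from separate cultures, so p-values reflect the variation among these samples alone, and it could be technical.

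Groups share replicate numbers. Deviations of same-numbered arrays correlated above 0.1 throughout in 5 of 6 group pairs for Cy3 levels (range 0.08 to 0.64), in 3 of 6 for Cy5 levels and in 0 of 6 for ratios. The numbers therefore paired samples in all 4 Cy3 comparisons, and in Cy5 between times in resting cells and for antigen at 16 h, a pairing that comes from the data and not from the labels. Alternatives were Agilent's processed signals, an offset of 16, median centring, other filters, 1 probe per gene, replicate and slide blocks, values within slides, fits of only the groups compared, and leaving out arrays. Leaving out the 3 arrays that deviate together was added after seeing the data.

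Every member and each of its probes is named. Of a pathway list, at most 3 genes per direction and comparison are named, those with the largest changes that passed. Genes like Havcr2 are taken from the 5 highest correlations. The lists (TIM relatives and further ligands, galectins, Ceacam family, HMGB proteins and receptors, tail kinases, phosphatidylserine receptors, sheddases, regulators of transcription, and 6 marker lists) hold 1 probe per gene, the brightest. Members and lists were chosen with earlier results of these data known. Proteins and probe sequences were not used here. Results of 2 genes are not reported here.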

Additional observations from a re-analysis of the deposited data

Results flagged for a closer look

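Dixon's gap test on 192 sets of 4 arrays (probe, measure and group) singled out 10 values, on 7 arrays, that lay far from the rest of their group. Chance alone gives about 1 in 20, and the count is near that share, so nothing is read from it. The sets are also not independent, since the ratio and both levels of a probe come from the same arrays. For Havcr2, A_51_P109508 had a Cy5 level of 15.63 in activated cells at 2 h, replicate 1, where the nearest array had 15.73. Its other probe, A_52_P560535, had Cy5 levels of 7.76 in activated cells at 16 h, replicate 4 (nearest 7.91), and 7.35 in resting cells at 16 h, replicate 1 (nearest 7.47). In Cy3 it had 7.38 in activated cells at 16 h, replicate 3 (nearest 7.67), the array with its highest ratio, 0.53. For Havcr1 A_51_P371740, Cy5 levels of 6.53 in resting cells at 16 h, replicate 2, and 6.56 in resting cells at 2 h, replicate 1, lay below the rest. Lgals9 had a Cy5 level of 10.74 in resting cells at 16 h, replicate 3, against 10.50 on the nearest array. Ceacam1 A_51_P171728 had a Cy3 level of 6.11 in resting cells at 16 h, replicate 2, in a group not well above background. Bag6 had ratios of 0.30 (A_51_P168865) and 0.13 (A_52_P205278) in resting cells at 16 h, replicate 3. That array also held the Lgals9 value, and it is 1 of the 3 arrays whose ratios deviate together across all kept probes. Whether anything sets these arrays apart was not tested.

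Effects of anti-TIM-3 on Havcr2 that differed between groups by the test of the difference itself were 0.55 (adjusted p = 0.000354) and 0.32 (0.0232) for activated minus resting cells at 2 h and 16 h on A_51_P109508, 0.28 (0.0341) and 0.34 (0.01) on A_52_P560535, and -0.51 (0.000278) for 16 h minus 2 h in activated cells on A_51_P109508. These come from limma across all kept probes.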

How the results depend on the processing

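Of 4560 values of member probes under the alternatives, 4271 kept their side of the threshold or, where untested, stayed within 1 SD. Values that passed in neither fit count among them even where the sign changed. An example is the Lgals9 ratio in resting cells at 2 h (-0.03 with loess, 0.28 with median centring). Of the rest, 90 no longer passed, 70 passed where the main value did not and 110 moved by more than 1 SD. The last 19 reversed, with the main or the alternative value past the threshold. All 19 came from median centring in place of loess, in ratios within groups except the one named last, and the cause was not tested. Ratios within groups include here the upward shift of all kept probes, 0.185 to 0.341 by group. In resting cells at 16 h the reversed values were 0.33 for Havcr2 A_51_P109508, 0.37 for Lgals9, -0.15 and -0.14 for Ceacam1 A_51_P171728 and A_51_P183446, and 0.43 and 0.15 for Hmgb1 A_52_P324336 and A_51_P269554. In activated cells at 16 h they were -0.0246 for Havcr1 A_51_P371745, -0.15 and -0.20 for the same Ceacam1 probes, and 0.70, 0.39 and 0.29 for Hmgb1 A_52_P324336, A_51_P269554 and A_52_P323044. In activated cells at 2 h they were 0.30 and 0.39 for Hmgb1 A_52_P324336 and A_51_P269554 and 0.28 for Bag6 A_51_P168865, and in resting cells at 2 h 0.33, 0.41 and 0.29 for the 3 Hmgb1 probes. The difference of Ceacam1 A_51_P183446 ratios between 16 h and 2 h in activated cells was -0.21. These Ceacam1 probes were well above background in Cy3 on 0 arrays at 16 h, and Havcr1 A_51_P371745 on 0 in Cy3 at either time. Their reversals therefore rest on values at background and have no reading. Median centring also took the Havcr2 A_51_P109508 ratio to 0.84 in activated cells at 16 h and 0.62 in resting cells at 2 h, both then past the threshold.

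For A_51_P109508, leaving out 1 array gave ratios of -0.27 to -0.18 in resting cells at 16 h, differences of 0.27 to 0.36 between activated and resting ratios at 16 h, and of -0.35 to -0.23 between 16 h and 2 h in resting cells, the last past the threshold without resting 2 h replicate 3 (-0.35, adjusted p = 0.0214). Agilent's processed signals gave 0.27 for the 16 h difference of ratios. Within single slides, which allow no test, the values that moved were ratio differences of 0.77 (antigen, 2 h), -0.48 (time, resting) and -0.65 (time, activated), Cy3 differences of 0.91 (antigen, 2 h) and 0.0361 (antigen, 16 h), and Cy5 differences of 1.68 and 0.62 (antigen, 2 h and 16 h), -1.13 (time, resting) and -2.24 (time, activated). On slide 3 the time difference of the activated ratios was 0.13 for A_52_P560535. With the replicate block 250 of 256 values kept their call and 6 newly passed, 4 of them given above (2 in Cy3 and, for Hmgb1 over time in resting cells, 0.17 and 0.26 in Cy5). The other 2 were for antigen at 2 h in Cy5, where the numbers do not pair the samples: Hmgb1 A_52_P117821 (-0.17) and Bag6 A_51_P168865 (-0.28). The block changed no call for Havcr2, whose A_51_P109508 ratio difference at 2 h was 0.55 with an adjusted p of 0.00016.

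Lgals9 differences between times of 0.23 (resting, IgG) and 0.45 (activated, anti-TIM-3) and the Hmgb1 A_52_P324336 antigen effect of -0.24 (IgG, 16 h) passed in the main fit and were lost under several alternatives.

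Counts over all kept probes moved by more than 1.5 times as follows. Median centring called 19624 and 17849 at 16 h (activated and resting) and 16017 and 14555 at 2 h, where loess called 7038, 4779, 8342 and 3212, with 88.5%, 91.8%, 92.3% and 96.4% of the calls higher where loess had 56.8%, 53.7%, 55.2% and 48.8%. It called 2670 where loess called 1742 for the antigen difference of ratios at 16 h (85.0% higher, loess 55.5%), 7186 where loess called 3959 for time in activated cells (74.9% and 48.2%), and 317 where loess called 38 for time in resting cells (75.1% and 26.3%). Its split was 88.6% at 2 h (loess 71.6%), 26.1% for antigen at 16 h in Cy3 (43.4%) and 64.3% in Cy5 (49.0%). Fitting only the groups compared called 303 in resting cells at 2 h and 2083 at 16 h, 756 for the 2 h difference (main 1431) and 5 for time in resting cells. Agilent's signals called 969 and 22 for these 2 differences (56.0% higher in the first) and had 41.5% higher in activated cells at 2 h. The slide block called 2569 and 22 for time in activated and resting cells, the replicate block 392 in resting cells, and 1 probe per gene 10424 and 10343 for time in activated cells in Cy5 and Cy3 (main 15682 and 15529). Without the 3 arrays, 2441 and 59 were called for resting cells at 16 h and for time in resting cells. Leaving out 1 array gave 4628 in activated cells at 16 h (without replicate 1), 1701 and 1731 in resting cells at 16 h (replicates 1 and 3), 5479 in activated cells at 2 h (replicate 4) and 1557 in resting cells at 2 h (replicate 1). The difference of ratios then had lows of 938 at 16 h (without activated replicate 1) and 874 at 2 h (without activated replicate 4), that for time in resting cells ran between 20 (without resting 16 h replicate 3) and 2889 (without resting 2 h replicate 3), and antigen in Cy5 at 16 h had a low of 3119 (without resting replicate 3).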
